A study of Homo sapiens with 8 samples.

Results

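The BCL2 family was followed through 8 RNA-seq libraries of NB4 cells, a cell line of acute promyelocytic leukemia (APL) that carries the PML/RARα fusion. Its 10 members were taken by gene symbol from the 37526 gene names listed for all 8 libraries. They comprise 4 pro-survival genes (BCL2, BCL2L1, MCL1 and BCL2A1), 2 effectors (BAX and BAK1) and 4 BH3-only genes (BCL2L11, BID, BBC3 and PMAIP1). All 10 passed the low-count filter in every comparison.

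The family sets the threshold at which a cell opens its outer mitochondrial membrane. BAX and BAK1 form the pores through which cytochrome c leaves, the pro-survival proteins hold these effectors and the BH3-only proteins in check, and the BH3-only proteins relay stress by occupying the pro-survival proteins or by activating the effectors. Released cytochrome c assembles the apoptosome, which switches on the caspases. Neutrophils, the cell type toward which ATRA drives APL cells, are short-lived and are known to depend on MCL1 and BCL2A1.

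All 4 groups, of 2 libraries each, were NB4 cells stably transduced with a lentiviral pLVX-shRNA2-puro vector. The control, here called scramble, is described as an empty vector in the labels and as a scrambled shRNA in the paper, and the other cells (shKDM3B) expressed an shRNA against KDM3B, an H3K9me1/me2 demethylase. Both were sequenced without ATRA and after all-trans retinoic acid (scramble+ATRA and shKDM3B+ATRA), which the labels give as 1 µM for 24 or 48 hours without saying which time each library had, while the methods give the concentration in another unit (mM). The methods list more than one KDM3B target sequence, and which one the sequenced cells carried is not given in the sources used here. The methods state that the RNA-seq experiment had 2 replicates but not whether these were separate cultures, so the P-values below measure only the spread between these libraries, which may be technical.

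The number of pairs assigned to genes ranged from 9708739 to 33017787 over the libraries. In 5 libraries, including scramble+ATRA replicate 1, from 8.49% to 9.62% of the pairs fell outside genes, whereas in scramble+ATRA replicate 2 and both shKDM3B+ATRA libraries the share was 50.0% to 51.4%. For the members called in comparisons that involve scramble+ATRA, a value without one of its libraries is therefore also given. For shKDM3B+ATRA against shKDM3B no such comparison exists, and ATRA and this split cannot be told apart there. Of the promyelocyte markers, MPO stood at 4280 and 5340 CPM in scramble and at 8340 and 9520 CPM in shKDM3B cells, and CTSG and CD33 were also present in every library. PRTN3 and AZU1 did not exceed 1.47 CPM in any library, and ELANE did not exceed 0.36 CPM and was at 0 in the 4 ATRA-treated libraries. MS4A1 (B cells), HBB (erythroid cells) and CD163 (macrophages) were at 0 in all 8 libraries.

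Levels are given as CPM, the counts per 1000000 pairs on genes after TMM scaling. A gene was called, and is said to have risen or fallen, when edgeR gave an unadjusted P under 0.05 with a change of 1.5-fold or more, the thresholds that the study applied with DESeq2. Adjusted p-values are Benjamini-Hochberg values over all genes of the same edgeR fit. Two-sided permutation of 2 against 2 libraries cannot give a p below 0.333, so each P below comes from the edgeR model. Overlap of groups was noted for named genes only, and the share of all genes without overlap was not determined. In bulk RNA, fewer cells of a kind and less RNA per cell cannot be told apart. KDM3B, the silenced gene, stood at 187 and 188 CPM in scramble and at 76.3 and 86.2 CPM in shKDM3B cells, a log2 fold change of -1.21 (SE 0.15, edgeR adjusted p = 0.068). With ATRA it was at 196 and 121 CPM in scramble and at 52.5 and 57.4 CPM in shKDM3B cells, with a log2 fold change of -1.53 (SE 0.29, edgeR adjusted p = 0.502). KDM3B was lower in both shKDM3B libraries than in both controls in each case. With ATRA it was not called when either shKDM3B+ATRA library was left out. Its log2 fold change was -1.84 without scramble+ATRA replicate 2. Without scramble+ATRA replicate 1, which leaves only libraries with a high share of pairs outside genes, it was -1.13.

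The upstream sequences of the members whose levels ranged most widely in each class, BCL2A1 and BBC3, are shown because the results below turn on these 2 genes. RefSeq (GRCh38.p14) listed a transcription start for 9 of the 10 members, all but MCL1. Each window covers up to 250 bases before the start, and capitals mark matches to motifs searched on both strands. The motifs were the PU.1 core GAGGAA, the AP-1 element TGANTCA, the CRE TGACGTCA and the retinoid half-site AGGTCA, and overlapping matches were allowed.
BCL2A1 upstream, chr15:79971197-79971446, minus strand, whole window: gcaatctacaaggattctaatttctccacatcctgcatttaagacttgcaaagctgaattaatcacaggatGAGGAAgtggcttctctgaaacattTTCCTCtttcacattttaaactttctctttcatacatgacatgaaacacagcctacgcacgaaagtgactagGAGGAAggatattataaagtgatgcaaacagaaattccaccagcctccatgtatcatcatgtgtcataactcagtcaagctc
BBC3 upstream, chr19:47232767-47232917, minus strand, the 151 bases that lie outside the annotated gene: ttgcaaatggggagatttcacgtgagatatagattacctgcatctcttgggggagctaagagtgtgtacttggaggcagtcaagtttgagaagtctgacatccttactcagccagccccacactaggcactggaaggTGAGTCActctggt
In the BCL2A1 window, GAGGAA lay 179 and 82 bases before the start, and its reverse complement 154 bases before it. This motif was present in 23.6% of 35116 RefSeq windows of the same length, and among the members also before BID. The BCL2A1 window had a GC content of 38.8%, against a median of 58.0% over all windows, and held 2 CpG dinucleotides. In the BBC3 window, 1 AP-1 element began 113 bases before the start, and such an element was found in 6.57% of all windows and before no other member listed. The CRE (1.65% of windows) and the retinoid half-site (12.1%) were found before no listed member. These matches describe the letters only, and say nothing about binding.

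The first question was how silencing KDM3B altered the family in untreated cells. BCL2 rose and BCL2A1 fell, and the other 8 members were not called. The 2 calls in opposite directions stand against 3.48% of the 13855 genes tested called higher and 3.53% called lower. The genes called numbered 482 higher and 489 lower, 961 and 689 without scramble replicate 2, and 469 to 589 and 457 to 635 with any other library left out. The median log2 fold change of the 10 members was 0.05, and that of all genes 0.

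BCL2, the founding pro-survival gene, lies on chromosome 18 of hg38 from 63123346 to 63320128 on the minus strand. Its level was 18.9 and 35.8 CPM in scramble and 58.6 and 57.4 CPM in shKDM3B cells. The shKDM3B libraries lay close together and above both controls, which were themselves far apart. The log2 fold change was 1.08 (SE 0.28, 2.12-fold, unadjusted P = 0.0041, edgeR adjusted p = 0.203). The value ranged with the control used, from 0.70 without scramble replicate 1 to 1.62 without scramble replicate 2, and BCL2 was called in both cases. DESeq2 gave it an adjusted p of 0.00776.

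BCL2A1, a pro-survival gene of myeloid and activated lymphoid cells, lies on chromosome 15 from 79960892 to 79971196 on the minus strand. It was low in untreated cells, at 5.32 and 3.36 CPM in scramble and 1.85 and 1.75 CPM in shKDM3B cells, which corresponded to 106 and 80 against 36 and 57 counts. Both shKDM3B libraries were below both controls. BCL2A1 fell by 1.27 on the log2 scale (SE 0.35, 2.41-fold, unadjusted P = 0.00652, edgeR adjusted p = 0.232), and its log2 fold change lay between -1.56 and -0.90 with any 1 library left out.

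MCL1, whose short-lived protein keeps myeloid cells alive, lies on chromosome 1 from 150560895 to 150579738. It stood at 166 and 144 CPM in scramble and 215 and 190 CPM in shKDM3B cells, without overlap. Its unadjusted P of 0.0349 passed the threshold, but its 1.31-fold change did not, so MCL1 was not called. BCL2L1, which encodes BCL-XL, was at 31.6 and 38.7 CPM in scramble and at 26.4 and 30.7 CPM in shKDM3B cells, also without overlap (log2 fold change -0.30, SE 0.19, unadjusted P = 0.152).

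Neither effector was called in untreated cells. BAX (chromosome 19, 48954815 to 48961798) was at 58.8 and 56.6 CPM in scramble and at 36.8 and 55.3 CPM in shKDM3B cells. The low value of shKDM3B replicate 1 carried the difference, and BAX was called lower (log2 fold change -0.66) when shKDM3B replicate 2 was left out. BAK1 (chromosome 6, 33572547 to 33580293) was at 52.9 and 60.2 against 55.8 and 62.5 CPM, with overlapping groups. BAK1 has a processed pseudogene with which its reads may be shared.

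The 4 BH3-only genes had overlapping groups in untreated cells. BCL2L11, which encodes BIM, had a log2 fold change of 0.22 (SE 0.18) and BID, which caspase 8 cleaves, one of 0.02 (SE 0.15). BBC3, which encodes the p53 target PUMA, had one of 0.41 (SE 0.31). PMAIP1, which encodes NOXA, the partner of MCL1, was at 16.9 and 7.97 CPM in scramble and 10.7 and 6.38 CPM in shKDM3B cells. Its log2 fold change of -0.55 (SE 0.39) was 0.09 without scramble replicate 1 and -0.99 without scramble replicate 2. PMAIP1 was called lower in the latter case and, at -0.96, without shKDM3B replicate 1.

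Of these members, 3 had an unadjusted P under 0.05 at any fold (10.2% of all genes), 0 had an edgeR adjusted p under 0.05, and 1, BCL2, passed both thresholds with DESeq2 and adjusted p (2.01% of all genes). Over all genes, 3 passed the edgeR rule with adjusted p, all of them lower (0.0217%), and 428 higher and 352 lower with the replicate block. With that block, used with adjusted p after seeing the data, BCL2 (edgeR adjusted p = 8.74e-05) and BCL2A1 (0.0149) passed as well. MCL1 then had an edgeR adjusted p of 0.0193 but stayed under the fold threshold, at 0.39.

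**Figure D1:**
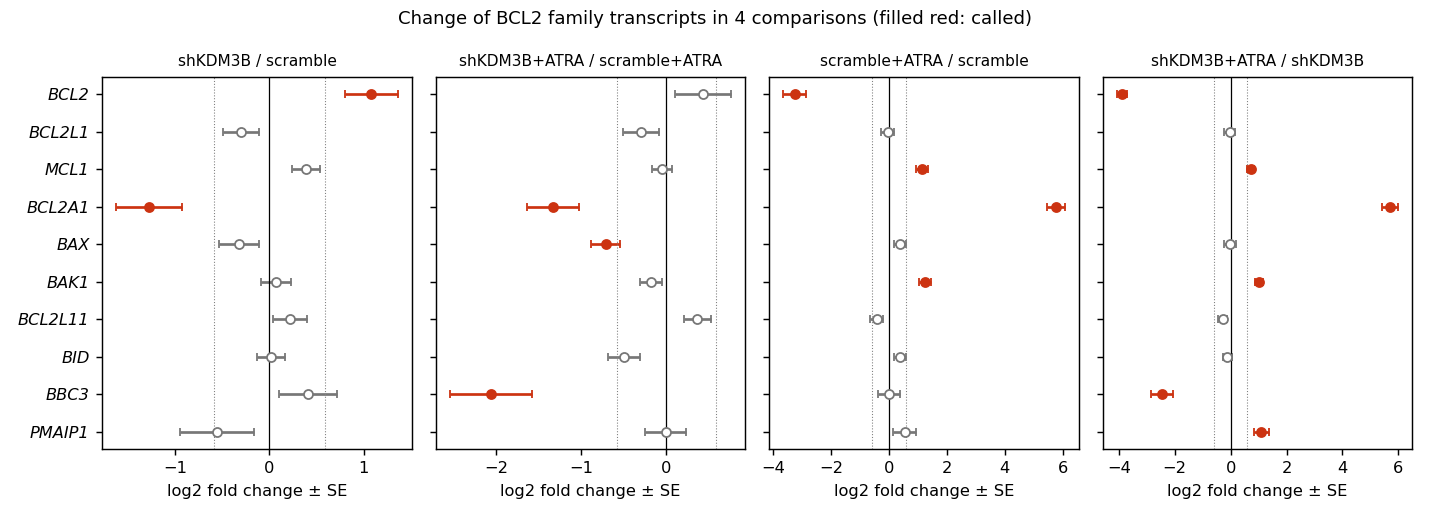
Log2 fold change of each member in 4 pairwise comparisons, with its standard error (horizontal bars, 2 libraries per group). Filled red points were called and dotted lines mark the 1.5-fold threshold; BCL2 and BCL2A1 were called in the untreated knockdown, BCL2A1, BAX and BBC3 in the knockdown with ATRA, and 4 and 6 members under ATRA in scramble and shKDM3B cells. The horizontal scales differ between panels.

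The response to ATRA was next described in scramble cells, in which 3 members rose and 1 fell, against 15.0% of 12429 genes called higher and 10.8% called lower. BCL2A1, MCL1 and BAK1 rose and BCL2 fell, each also at an adjusted p under 0.05 with edgeR, as 7.84% of all genes did in the upward and 5.06% in the downward direction, and with DESeq2 (17.4% of all genes). With either scramble library left out the 4 stayed called, but at an edgeR adjusted p of 0.105 to 0.361. Over all genes, 1866 were called higher and 1347 lower, against 900 and 678 without scramble replicate 1, 918 and 544 without scramble replicate 2, 2866 and 2276 without scramble+ATRA replicate 1, and 1617 and 1688 with library size alone in place of TMM. The median log2 fold change of the 10 members was 0.38, beside 0.02 over all genes.

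BCL2A1 went from 5.32 and 3.36 CPM to 225 and 233 CPM, a log2 fold change of 5.76 (SE 0.31, 54.1-fold, edgeR adjusted p = 0.000135). Both treated libraries were alike, although they differed in the share of pairs outside genes, and the value was 5.71 without scramble+ATRA replicate 2 and 5.79 without replicate 1. BCL2 moved the other way, from 18.9 and 35.8 CPM to 3.0 and 2.58 CPM. It fell by 3.25 on the log2 scale (SE 0.40, 9.51-fold, edgeR adjusted p = 0.00265), and by 3.18 without scramble+ATRA replicate 2, which leaves libraries of like share only.

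MCL1 increased from 166 and 144 CPM to 326 and 341 CPM (log2 fold change 1.14, SE 0.21, edgeR adjusted p = 0.0121). BAK1 increased from 52.9 and 60.2 CPM to 130 and 132 CPM (log2 fold change 1.24, SE 0.20, edgeR adjusted p = 0.00808). Without scramble+ATRA replicate 2 these values were 1.08 and 1.2. GGNBP1, which lies opposite 4.11% of the exon length of BAK1, had 0 to 2 counts in 5 libraries and 170, 170 and 175 counts in those with about 50% of pairs outside genes, and its part in the BAK1 values was not tested.

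The other 6 members were not called in scramble cells. BAX reached 74.1 and 71.3 CPM and BID 79.9 and 80.6 CPM, both above their controls (log2 fold changes 0.37 and 0.38, SE 0.20 each). BCL2L11 stood below its controls, at 28.0 and 29.4 CPM (log2 fold change -0.43, SE 0.22). BBC3, at 4.54 and 4.52 CPM, lay between its controls. BCL2L1 was at 34.8 and 31.6 CPM, and PMAIP1 at 16.7 and 18.6 CPM. PMAIP1 was called higher (log2 fold change 1.15) only without scramble replicate 1, where its level was high before ATRA.

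In shKDM3B cells, 6 members were called under ATRA, 4 higher and 2 lower, against 24.0% and 18.3% of 12756 genes. BCL2A1, MCL1, BAK1 and PMAIP1 rose, and BCL2 and BBC3 fell. All 6 passed with an adjusted p under 0.05 as well, with edgeR (23.0% of all genes higher and 17.3% lower) and with DESeq2 (36.5% of all genes). The median log2 fold change of the members was -0.03, beside 0.04 over all genes.

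BCL2A1 went from 1.85 and 1.75 CPM to 67.4 and 114 CPM, a log2 fold change of 5.71 (SE 0.29, 52.4-fold, edgeR adjusted p = 4.81e-07). BCL2 went from 58.6 and 57.4 CPM to 3.79 and 3.72 CPM, and fell by 3.89 on the log2 scale (SE 0.18, 14.9-fold, edgeR adjusted p = 3.1e-07). MCL1 rose to 305 and 339 CPM (log2 fold change 0.72, SE 0.13, edgeR adjusted p = 0.00129), and BAK1 to 107 and 123 CPM (1.01, SE 0.14, edgeR adjusted p = 0.000279). In each of these genes the groups were separated, which is a description without the share of all genes.

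BBC3 (chromosome 19, 47220822 to 47232766, minus strand) went from 5.29 and 7.06 CPM to 0.737 and 1.41 CPM. It fell by 2.46 on the log2 scale (SE 0.39, 5.52-fold, edgeR adjusted p = 0.000688). The treated libraries held 7 and 14 counts of BBC3, against 103 and 230, so counting error weighed most on this member. PMAIP1 (chromosome 18, 59899996 to 59904305) rose from 10.7 and 6.38 CPM to 19.6 and 15.5 CPM (log2 fold change 1.10, SE 0.27, edgeR adjusted p = 0.00822). BCL2L11 (-0.29, SE 0.15), BID (-0.12, SE 0.16), BCL2L1 (-0.04, SE 0.18) and BAX (-0.01, SE 0.21) were not called.

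The sum of ITGAM, ITGAX, CD38, TGM2 and CYP26A1 was 142 to 145 CPM in scramble, 150 to 182 CPM in shKDM3B, 5860 to 6620 CPM in scramble+ATRA and 2850 to 3280 CPM in shKDM3B+ATRA libraries. CD38 made up most of it in the untreated libraries, and TGM2, an ATRA-induced transglutaminase, in the ATRA-treated ones. With ATRA, TGM2 was at 5840 and 5140 CPM in scramble and at 2270 and 2540 CPM in shKDM3B cells, and ITGAM at 217 and 154 against 104 and 106 CPM. ITGAX (98.4 and 91.5 against 48.6 and 79.6 CPM) and CYP26A1 (9.99 and 8.67 against 0.421 and 2.11 CPM) were likewise lower in both shKDM3B+ATRA libraries. CD38 was at 459 and 460 against 434 and 549 CPM, with overlapping groups. In untreated cells the mean of CD38 was 112 CPM in scramble and 147 CPM in shKDM3B cells, while those of ITGAM (23.3 and 12.4 CPM) and ITGAX (8.32 and 6.26 CPM) lay the other way. MPO was at 730 and 616 CPM in scramble+ATRA and 3130 and 2220 CPM in shKDM3B+ATRA libraries, and it made up most of the promyelocyte sum (707 to 844 and 2320 to 3220 CPM). CTSG was at 4.11 and 2.31 against 2.0 and 1.71 CPM, and CD33 had means of 99.2 and 95.6 CPM in these groups and 68.7 CPM in untreated scramble cells. Monocyte markers (CD14, CD163 and CSF1R) summed to 4.72 to 5.37, 2.41 to 3.47, 5.35 to 9.74 and 3.52 to 4.32 CPM in the 4 groups in the same order, with CD163 at 0 throughout. The 4 lymphoid markers summed to at most 9.50 CPM and the 2 erythroid markers to at most 0.737 CPM in any library. The part of differentiation state in the changes of the members was not tested.

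The next question was how the knockdown altered the family in the presence of ATRA. BCL2A1, BAX and BBC3 fell in shKDM3B+ATRA relative to scramble+ATRA, and no member rose, against 4.37% of 14281 genes called lower and 2.42% called higher. This background depended on single libraries. All genes called numbered 345 higher and 624 lower with every library, 1291 and 1205 without scramble+ATRA replicate 1, 3409 and 1951 without scramble+ATRA replicate 2, 40 and 94 without shKDM3B+ATRA replicate 1, and 66 and 218 without shKDM3B+ATRA replicate 2. The median log2 fold change of the members was -0.24 and that of all genes 0.03. This comparison shares its libraries with both ATRA comparisons above, so the values are not independent of them.

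BCL2A1 was at 225 and 233 CPM in scramble+ATRA and at 67.4 and 114 CPM in shKDM3B+ATRA libraries. It fell by 1.33 on the log2 scale (SE 0.30, 2.51-fold, unadjusted P = 0.0142, edgeR adjusted p = 0.502). DESeq2 gave an adjusted p of 0.00432. The log2 fold change lay between -1.75 and -1.0 when each library was left out, was called each time, and was -1.35 among the libraries with about 50% of pairs outside genes.

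BAX, which moves from cytosol to mitochondria to form pores, was at 74.1 and 71.3 CPM in scramble+ATRA and at 39.2 and 49.5 CPM in shKDM3B+ATRA libraries. It fell by 0.71 on the log2 scale (SE 0.17, 1.63-fold, unadjusted P = 0.0165, edgeR adjusted p = 0.502). Among the libraries with about 50% of pairs outside genes the log2 fold change was -0.67. Without shKDM3B+ATRA replicate 1 it was -0.55 and BAX was not called.

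BBC3 was at 4.54 and 4.52 CPM in scramble+ATRA and at 0.737 and 1.41 CPM in shKDM3B+ATRA libraries, which corresponded to 74 and 49 against 7 and 14 counts. It fell by 2.06 on the log2 scale (SE 0.48, 4.17-fold, unadjusted P = 0.0154, edgeR adjusted p = 0.502). The log2 fold change was -2.04 among the libraries with about 50% of pairs outside genes. Without shKDM3B+ATRA replicate 1 it was -1.67 (unadjusted P = 0.0873 from edgeR) and BBC3 was not called.

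The remaining 7 members were not called with ATRA. BID was at 79.9 and 80.6 CPM against 48.0 and 65.0 CPM (log2 fold change -0.50, SE 0.19, unadjusted P = 0.0649 from edgeR), with both shKDM3B+ATRA libraries lower. BCL2L11 was at 28.0 and 29.4 CPM against 35.2 and 38.3 CPM (0.36, SE 0.16), with both shKDM3B+ATRA libraries higher. BCL2 had a log2 fold change of 0.43 (SE 0.33) on 49 and 28 against 36 and 37 counts, and one of 0.32 to 0.55 with any 1 library left out. MCL1 (-0.05, SE 0.12), PMAIP1 (-0.01, SE 0.24), BAK1 (-0.18, SE 0.13) and BCL2L1 (-0.30, SE 0.21) differed by less than 1.5-fold.

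BCL2L1 (chromosome 20, 31664452 to 31723989, minus strand) was the member with the smallest range of group means, 0.38 on the log2 scale. ABALON, a gene on the opposite strand of 41.3% of its exon length, had 0 to 1 counts in 5 libraries and 95, 106 and 134 counts in those with about 50% of pairs outside genes. Its part in the BCL2L1 values was not tested. With ATRA, 3 members had an unadjusted P under 0.05 (9.68% of all genes), 0 had an edgeR adjusted p under 0.05, and 1, BCL2A1, passed both thresholds with DESeq2 and adjusted p (2.50% of all genes). Over all genes, 0 passed the edgeR rule with adjusted p. In simulated data 0% of the genes changed 3-fold had an adjusted p under 0.05 in this edgeR fit, so these counts of 0 say little about the members.

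**Figure D2:**
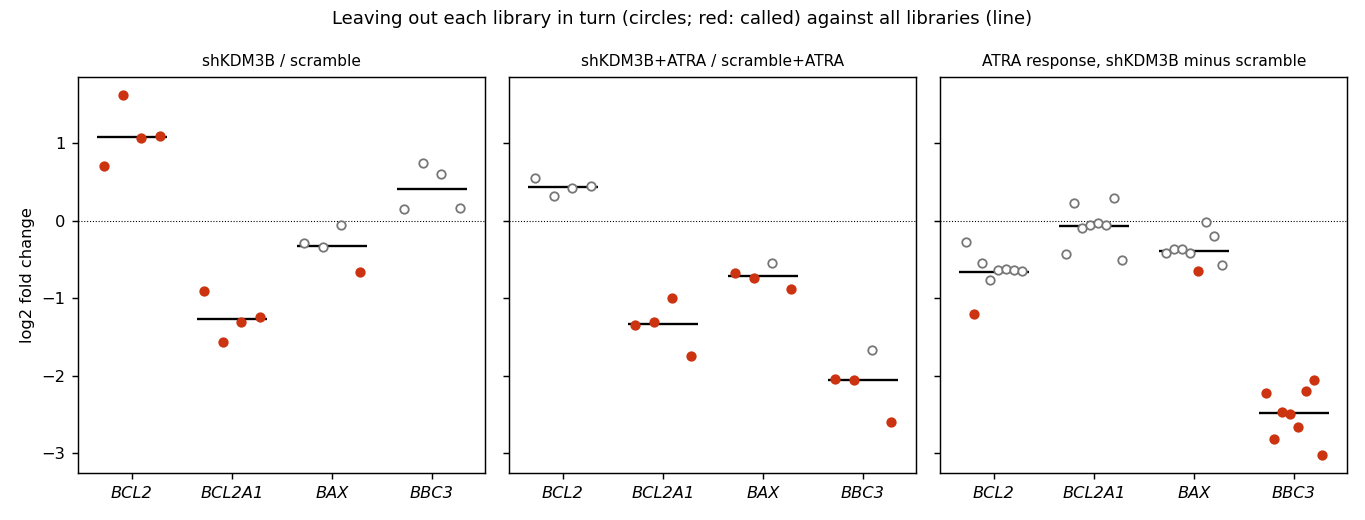
Log2 fold change of BCL2, BCL2A1, BAX and BBC3 over all libraries (black lines) and with each library left out in turn (circles, red where called), for the knockdown without and with ATRA and for the difference between the ATRA responses. BCL2 stayed called and ranged from 0.70 to 1.62 without ATRA, and the difference in the ATRA response of BBC3 stayed between -3.02 and -2.06.

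Whether the response to ATRA itself differed between shKDM3B and scramble cells was tested with an interaction term fitted to the 8 libraries. BBC3 was the only member called, with a response lower in shKDM3B than in scramble cells, against 2.72% of 13528 genes called lower and 1.27% called higher. Its response was 0.00 (SE 0.39) in scramble and -2.46 (SE 0.39) in shKDM3B cells on the log2 scale, and the interaction was -2.48 (SE 0.57, unadjusted P = 0.00314, edgeR adjusted p = 1). It was -2.47 without scramble+ATRA replicate 1 and stayed called when each of the 8 libraries was left out. The response in scramble cells alone was -0.30 without scramble replicate 1 and 0.31 without scramble replicate 2. The median interaction was -0.32 over the members and -0.02 over all genes. At an unadjusted P under 0.05 the count was 1 member (4.49% of all genes), with adjusted p it was 0 members with edgeR and 0 with DESeq2 (0.17% of all genes), and over all genes 0 passed the edgeR rule with adjusted p. In simulated data this edgeR fit called 4.46% of unchanged genes. Of genes changed 3-fold there, 1% had an adjusted p under 0.05, so the counts of 0 say little. With library size alone in place of TMM, 45.6% of the calls over all genes were higher in place of 31.9%, and BBC3 stayed called. All genes called in the interaction numbered 172 higher and 368 lower with every library, 1168 and 1264 without scramble+ATRA replicate 2, 388 and 408 without scramble+ATRA replicate 1, 121 and 224 without scramble replicate 1, 175 and 185 without shKDM3B replicate 2, and 128 and 157 without shKDM3B+ATRA replicate 1.

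BCL2A1 had an interaction of -0.07 (SE 0.46, unadjusted P = 0.883 from edgeR), its log2 ratio of shKDM3B to scramble being -1.27 without and -1.33 with ATRA. MCL1 had one of -0.44 (SE 0.20, unadjusted P = 0.0628) and BID one of -0.52 (SE 0.24, unadjusted P = 0.0614), both from edgeR. BCL2 had one of -0.66 (SE 0.44) and was called at -1.2 without scramble replicate 2, the control with the higher level. BAX was called at -0.65 without shKDM3B replicate 1, and BID at -0.76 without shKDM3B+ATRA replicate 2. BCL2L1, BAK1, BCL2L11 and PMAIP1 were not called, with standard errors of 0.21 to 0.57.

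Levels were compared between genes per kilobase of exon. In scramble cells the mean CPM per kb was 25.6 for BAK1, 24.9 for MCL1 and 22.3 for BAX, followed by 14.2 for BID, 8.38 for BCL2L1, 5.89 for BCL2L11, 5.68 for PMAIP1, 4.36 for BCL2A1, 2.17 for BCL2 and 1.46 for BBC3. BAK1 (23.9 to 27.2) and MCL1 (23.2 to 26.6) overlapped between replicates, and PMAIP1 (3.65 to 7.72) spanned the mean levels of both BCL2L11 and BCL2A1. The order depended on the gene model, since BAX reached 72.6 CPM per kb by its canonical transcript. With ATRA, BCL2A1 had a mean of 230 CPM per kb in scramble and 91.2 CPM per kb in shKDM3B cells, above MCL1 at 53.6 and 51.7 CPM per kb.

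The make-up of the 4 pro-survival members changed accordingly, and other genes of the family do not enter these shares. MCL1 made up 64.9% and 60.0% of the summed CPM per kb of the 4 genes in scramble and 73.0% and 69.1% in shKDM3B libraries. In scramble+ATRA libraries BCL2A1 made up 78.7% and 78.9%, and in shKDM3B+ATRA libraries 55.2% and 65.0%. BCL2 accounted for 3.65% and 7.35% in scramble and 9.80% and 10.3% in shKDM3B libraries, and for less than MCL1, BCL2L1 and BCL2A1 in every ATRA-treated library. By the canonical transcripts, an alternative chosen after seeing the data, the BCL2A1 share with ATRA was 74.9% and 75.1% in scramble and 49.9% and 59.9% in shKDM3B libraries.

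For the pro-survival and the pro-death member with the widest range of group means, BCL2A1 (6.64 on the log2 scale) and BBC3 (2.11), the genes with the most similar profile over the 8 libraries were sought among 8722 genes. The measure was the root mean square difference of centred log2(CPM + 0.5) values. CDH23 (0.26), ADGRG3 (0.31) and GNG2 (0.36) lay closest to BCL2A1. ADGRG3, an adhesion receptor of granulocytes, was at 3.06 and 3.69 CPM in scramble, 1.34 and 2.30 in shKDM3B, 232 and 221 in scramble+ATRA and 75.8 and 103 CPM in shKDM3B+ATRA libraries. FOSL2 (0.16), an AP-1 subunit, ETS1 (0.21), a transcription factor, and ATP5J2 (0.33), a subunit of ATP synthase, lay closest to BBC3. FOSL2 was at 21.4 and 32.3, 31.8 and 34.7, 25.4 and 22.2, and 7.69 and 10.7 CPM in the 4 groups in the same order. These neighbours are a description over the same 8 libraries, which differ in depth and in the share of pairs outside genes, with no test.

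Among 11 further genes of the BCL2 family, 7 were tested, and BCL2L10, BOK, HRK and BCL2L14 were too low. In untreated cells 4 of them fell with the knockdown and none rose, against 3.53% of all genes called lower and 3.48% called higher. The BH3-only genes BAD, BIK and BMF fell by 0.62, 1.25 and 1.17 and BCL2L15 fell by 1.56 on the log2 scale (edgeR adjusted p of 0.329, 0.464, 0.424 and 0.421). BAD, which binds BCL2 and BCL-XL, was at 24.1 and 23.1 against 13.6 and 17.1 CPM, and BIK and BCL2L15 were below 1.1 CPM in every untreated library. The fall of BMF rested on scramble replicate 1, at 31.8 CPM against 10.0 CPM in replicate 2, and its log2 fold change without that library was -0.11. BMF also belongs to a signature that the study chose on these samples. With ATRA, BAD fell by 0.80 on the log2 scale with the knockdown, and was not called when either shKDM3B+ATRA library was left out (-0.95 to -0.65), with the replicate block or with the likelihood ratio test. In untreated cells BAD was not called without shKDM3B replicate 1, at -0.46. Under ATRA, BIK rose in scramble cells (1.25) and in shKDM3B cells (2.52), and BCL2L15 in shKDM3B cells (1.98), against 15.0% and 24.0% of all genes called higher. In shKDM3B cells the value of BIK lay between 2.16 and 3.11 with any 1 library left out, on untreated levels of 0.257 and 0.491 CPM. BCL2L15 in shKDM3B cells was not called with DESeq2 or without shKDM3B+ATRA replicate 1, and it was at 0.552 and 1.66 CPM in the scramble+ATRA libraries. BIK was at 1.53 CPM in scramble+ATRA replicate 1 and at 2.86 CPM in replicate 2, and was not called without the latter, at 0.72. This call of BIK held in 5 of 15 alternatives, and was lost with DESeq2, library size or upper-quartile scaling, no filter, adjusted p, the replicate block, and either scramble library left out. No gene of this list was called in the interaction. The calls of BIK and BCL2L15 in untreated cells were lost in 7 of 16 alternatives each, for BIK with any 1 library left out (-1.85 to -0.92).

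Downstream of the family, 7 genes of the apoptosome and of the caspases were tested. APAF1 (0.76), the apoptosome scaffold, and the initiators CASP9 (1.31) and CASP8 (0.94) rose under ATRA in scramble cells, and APAF1 (0.60), CASP9 (0.95), CASP8 (1.26) and CYCS (0.61), which encodes cytochrome c, in shKDM3B cells (log2 fold changes). Without scramble replicate 1, APAF1 in scramble cells was at 0.42, and without shKDM3B replicate 2, CYCS was at 0.23, neither being called. CASP8 in scramble cells was not called without scramble replicate 2, at 0.68, nor was APAF1 in shKDM3B cells without shKDM3B replicate 2, at 0.49. The latter call held in 9 of 15 alternatives, as did that of XIAP below, and that of CYCS held in 8. All 3 were lost with library size alone, upper-quartile scaling, no filter, 1 fit of all 8 libraries and without shKDM3B+ATRA replicate 1, and CYCS also with adjusted p (edgeR adjusted p = 0.054). In scramble cells CASP9 passed with edgeR adjusted p (0.0217), whereas APAF1 (0.13) and CASP8 (0.0521) did not. CASP8 went from 86.1 and 58.3 CPM to 147 and 124 CPM in scramble and from 55.6 and 53.4 CPM to 125 and 128 CPM in shKDM3B cells. The 3 and 4 of 7 genes called higher under ATRA stood against 15.0% and 24.0% of all genes, and none was called lower, against 10.8% and 18.3%. In the knockdown comparisons and the interaction 0 of the 7 were called, where 1.27% to 4.37% of all genes were called in each direction. The median log2 fold change of the list was 0.37 and 0.60 under ATRA, -0.10 and 0.07 with the knockdown without and with ATRA, and 0.17 in the interaction.

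Of 8 inhibitors of apoptosis and their antagonists, up to 7 were tested and NAIP was too low. BIRC2, which encodes cIAP1, rose under ATRA in scramble (0.87) and shKDM3B cells (1.17), and XIAP, the caspase inhibitor, in shKDM3B cells (0.62). BIRC2 in scramble cells was not called without scramble replicate 2, at 0.64, nor XIAP without shKDM3B replicate 2, at 0.48. TMEM14A rose under ATRA in shKDM3B cells (1.32) as the only one of 5 outer membrane channels and partners called. It was at 6.37 CPM in scramble+ATRA replicate 1 and at 17.4 CPM in replicate 2, of which the latter had about 50% of pairs outside genes, and the part of that share in its level was not tested. HUWE1, a ubiquitin ligase of MCL1, fell under ATRA in shKDM3B cells by 0.88 on the log2 scale as the only one of 6 genes of MCL1 turnover called. It differed likewise between the scramble+ATRA libraries, at 507 and 241 CPM. Under ATRA in shKDM3B cells 24.0% of all genes were called higher and 18.3% lower. No gene of these 3 lists was called in a knockdown comparison or in the interaction, where the shares of all genes were the 1.27% to 4.37% given above.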

How the data were processed

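RNA was sequenced from 8 libraries of NB4 cells, 2 in each of 4 groups taken from the labels. According to the methods and the processing notes, reads were aligned to hg38 with HISAT2, counted on genes with HTSeq and compared with DESeq2. The authors deposited whole-number counts per gene without normalization, together with summary lines that were left out of library sizes. The untreated files list 56470 names and the ATRA files 56609. Whether counting used strand is not given in the sources used here.

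Each pair of groups was fitted on its own with edgeR 4.0.16 in R 4.3.3 (filterByExpr, TMM, quasi-likelihood F test, Benjamini-Hochberg adjustment over all genes), and the interaction over all 8 libraries. A gene was called at an unadjusted P under 0.05 and a fold of at least 1.5. The standard error is the log2 fold change divided by the square root of F. CPM came from 1 TMM scaling of all 8 libraries. Exon lengths and positions came from GENCODE v44 on hg38, and upstream sequences from RefSeq. The methods name a RefSeq annotation for counting, whereas the gene names follow GENCODE usage, so the lengths behind CPM per kb may differ from those counted on. DESeq2 1.42.0, other scalings, filters and samples, a replicate block and each library left out were the alternatives. A group left with 1 library was then assumed to vary like the other groups. The replicates of each group differed beyond sampling noise. The fits were tested on simulated data in which 200 genes were changed 3-fold. Of these, 94% were called in the untreated knockdown, 60.5% in the knockdown with ATRA and 68.5% in the interaction. At an edgeR adjusted p under 0.05 the shares were 77.5%, 0% and 1%. Under ATRA they were 60.5% in scramble and 83% in shKDM3B cells. Of the unchanged genes, 2.75%, 4.39% and 4.46% were called in the knockdown comparisons and the interaction. Figures were drawn with matplotlib 3.10.9 from tables handled with pandas 2.3.3.

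The family and its 10 symbols, the lists of other genes and the markers were chosen with earlier results of these data known, and some listed genes are not reported here. Named genes were the members, each listed gene called in at least 1 comparison, KDM3B and, for 2 members, the 3 genes with the nearest profile among those with a mean of at least 10 CPM. Markers, genes on the opposite strand of members and listed genes too low to test were named as well.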

Additional observations from a re-analysis of the deposited data

Results flagged for a closer look

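BBC3 stood out because its estimated response to ATRA differed between shKDM3B and scramble cells by an interaction of -2.48 on the log2 scale (SE 0.57, unadjusted P = 0.00314, edgeR adjusted p = 1), with 7 and 14 counts in the shKDM3B+ATRA libraries. Over all genes, 2.72% were called lower and 1.27% higher in the interaction. In simulated data the same fit called 4.46% of genes without a change, so a single call carries little weight.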

How the results depend on the processing

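Of the recomputed counts of called members, 147 stayed within 1.5 times of those reported and 13 did not. With adjusted p, 0 members were called higher or lower in the untreated knockdown, and 0 lower in the knockdown with ATRA and in the interaction. With libraries left out, the members called lower numbered 1 to 2 in the untreated knockdown, 1 to 3 in the knockdown with ATRA and 1 to 2 in the interaction, while all genes called lower numbered 457 to 689, 94 to 1951 and 157 to 1264. BAX with ATRA missed the threshold by edgeR's likelihood ratio test (unadjusted P = 0.0502).

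Of the fold changes of single members, 748 kept their direction and call, 13 lost the call, 7 gained it and 32 changed sign, all of the latter in members not called. The setting with adjusted p reuses the main fit, so there no direction could change and no call could be gained. The block with adjusted p reuses the fold changes of the block, so these tallies overstate stability. The sign changes were BID at -0.03 with upper-quartile scaling in the untreated knockdown, PMAIP1 at 0.02 (library size alone) and 0.01 (names shared by all libraries) in the knockdown with ATRA, BAX at 0.01 (minimum of 10 counts, or the replicate block) under ATRA in shKDM3B cells, and BCL2L1 at 0.01 (DESeq2's size factors, or DESeq2), 0.06 (library size) and 0.03 (upper quartile) in the interaction. BBC3 under ATRA in scramble cells, reported as 0.00 and so not counted among these, was at 0.03 with the replicate block. With libraries left out, the log2 values that changed sign, and that of BBC3, ranged as follows. In the untreated knockdown BAK1 lay between -0.03 and 0.17, BID between -0.02 and 0.06 and PMAIP1 between -0.99 and 0.09, and in the knockdown with ATRA MCL1 lay between -0.12 and 0.03 and PMAIP1 between -0.18 and 0.16. BCL2L1 lay between -0.21 and 0.09 under ATRA in scramble cells, where BBC3 lay between -0.30 and 0.31, and between -0.21 and 0.10 in shKDM3B cells, where BAX lay between -0.32 and 0.32 and BID between -0.35 and 0.06. In the interaction BCL2L1 lay between -0.18 and 0.18, BCL2A1 between -0.50 and 0.29, BCL2L11 between -0.02 and 0.31 and PMAIP1 between -0.11 and 0.97.

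The labels number the replicates alike across groups, but nothing says that a number marks a shared culture. The deviations of same-numbered libraries correlated across genes at 0.389 (untreated knockdown), 0.0261 (with ATRA), -0.0731 (ATRA in scramble) and 0.183 (ATRA in shKDM3B). With the replicate block no call of the 10 members changed, and the genes called with ATRA numbered 179 higher and 346 lower, in place of 345 and 624. By the likelihood ratio test 395 genes were called lower with ATRA, and in 1 fit of all 8 libraries 313 were called higher in the untreated knockdown, in place of 482. With the block and adjusted p, chosen after seeing the data, BCL2 (adjusted p = 8.74e-05) and BCL2A1 (0.0149) were called by edgeR in the untreated knockdown, where the genes called numbered 428 higher and 352 lower in place of 0 and 3, and 0 members were called lower with ATRA or in the interaction.

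Without a low-count filter, the genes called lower in the untreated knockdown numbered 737 in place of 489, and those called in the interaction 366 higher and 575 lower, in place of 172 and 368. BBC3 and BCL2 had between 7 and 74 counts in the ATRA libraries.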

Other observations

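CYCS, which encodes cytochrome c, differed between replicates before ATRA more than between the groups, at 683 and 404 CPM in scramble and 617 and 332 CPM in shKDM3B cells. With ATRA its level was 531 and 780 CPM in scramble and 713 and 686 CPM in shKDM3B cells.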
